A study of Mus musculus with 12 samples.

Results

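This report describes 9 mouse genes known as targets of the transcriptional coactivator YAP or of the transcription factor SRF: Ccn1 (formerly Cyr61), Ccn2 (formerly Ctgf), Ankrd1, Amotl2, Ajuba, Lats2, Acta2, Tagln and Cnn1. They were taken as a named list, by Ensembl identifier matched to the mm10 symbol, and all 9 were found among the 54100 genes that all 12 count files share. Polyadenylated RNA of cultured mouse cells was sequenced in 6 groups of 2 libraries, and the study set each of 3 treatments against its own control. The series is titled as a study of how the kinase CK1α restrains cGAS-STING signaling, the cell's sensing of DNA in the cytosol.

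The SSTC3 group was treated with SSTC3, known as an activator of CK1α, and the DMSO group with that solvent. Their cells are labelled BMDM, bone marrow-derived macrophages, with the knockout names TREX1-KO and TREX2-KO on the SSTC3 libraries and TREX3-KO and TREX4-KO on the DMSO libraries. If these numbers name genes, the knockout and the treatment cannot be told apart. The CK1a_OE group is labelled CK1a overexpression and is set against OE_control, labelled overexpression control. The CK1a_KD group is labelled CK1a knockdown, with siRNA in the library names, and is set against KD_control, labelled knockdown control. Cells of these 4 groups are labelled MEF, mouse embryonic fibroblasts, and the labels give the C57BL/6J background for all 12 libraries. The labels state no dose, time, construct or siRNA sequence, and do not say whether the 2 libraries of a group came from separate cultures, so p-values measure the spread between those libraries, which may be technical.

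In the Hippo pathway, the kinases MST1 and MST2 activate the kinases LATS1 and LATS2, which phosphorylate YAP and its relative TAZ and so keep them in the cytoplasm. CK1δ and CK1ε can then phosphorylate YAP at a degron read by the ubiquitin ligase SCF-βTrCP, and the protein is degraded. YAP and TAZ that reach the nucleus bind TEAD factors and raise genes such as Ccn1, Ccn2 and Ankrd1, and also Amotl2, Ajuba and Lats2, whose proteins feed back on the pathway. SRF binds the CArG box, with MRTF cofactors released from monomeric actin or with ETS-family cofactors, and is the classical regulator of the contractile genes Acta2, Tagln and Cnn1 in smooth muscle and activated fibroblasts. In fibroblasts both factors respond to cell spreading and tension on the actin cytoskeleton.

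The promoters show how differently the members carry the short motifs of these factors. The RefSeq promoter table (GRCm38.p6) held 7 of the 9 members, and Ccn2 and Tagln were not in it. Windows of 250 bases before the annotated start were searched on both strands for CATTCC (the core bound by TEAD), for the CArG box (bound by SRF), either exact or with 1 mismatch in its core, and for TGANTCA (bound by AP-1). No printed match overlaps another. The 5 windows with a match are given 5′ to 3′ on the gene's strand, with each match in capitals, CATTCC being read GGAATG on the other strand. They lie at chr3:145649986-145650235 (minus strand) for Ccn1, chr19:36119845-36120094 (minus strand) for Ankrd1, chr9:102717554-102717803 (plus strand) for Amotl2, chr14:54577662-54577911 (minus strand) for Ajuba and chr19:34255374-34255623 (minus strand) for Acta2.
Ccn1: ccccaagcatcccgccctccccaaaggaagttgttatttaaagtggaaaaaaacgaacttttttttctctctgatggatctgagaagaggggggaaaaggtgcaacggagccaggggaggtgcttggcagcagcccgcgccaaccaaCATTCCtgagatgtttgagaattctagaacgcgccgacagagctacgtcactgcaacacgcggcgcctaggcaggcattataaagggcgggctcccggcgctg
Ankrd1: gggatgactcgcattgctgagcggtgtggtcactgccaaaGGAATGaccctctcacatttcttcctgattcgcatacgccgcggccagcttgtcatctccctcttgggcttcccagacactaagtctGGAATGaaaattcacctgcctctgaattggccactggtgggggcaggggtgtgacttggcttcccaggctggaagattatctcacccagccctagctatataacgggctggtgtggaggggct
Amotl2: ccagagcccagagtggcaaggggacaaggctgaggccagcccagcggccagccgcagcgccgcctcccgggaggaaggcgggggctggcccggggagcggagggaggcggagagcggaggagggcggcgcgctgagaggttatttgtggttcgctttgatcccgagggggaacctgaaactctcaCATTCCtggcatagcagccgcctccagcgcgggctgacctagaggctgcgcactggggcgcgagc
Ajuba: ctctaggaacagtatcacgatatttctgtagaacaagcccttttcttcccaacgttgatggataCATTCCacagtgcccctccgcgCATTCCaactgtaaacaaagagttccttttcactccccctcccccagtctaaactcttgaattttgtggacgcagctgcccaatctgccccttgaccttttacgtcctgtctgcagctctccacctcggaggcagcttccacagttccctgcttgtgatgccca
Acta2: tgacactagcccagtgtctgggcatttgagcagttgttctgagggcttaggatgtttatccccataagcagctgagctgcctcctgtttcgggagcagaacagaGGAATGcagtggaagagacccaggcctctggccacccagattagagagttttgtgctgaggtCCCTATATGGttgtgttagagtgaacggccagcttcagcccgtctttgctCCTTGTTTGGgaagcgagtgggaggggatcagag

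CATTCC stood once in the Ccn1 window, 103 bases before the start, and once in that of Amotl2, 65 bases before it. Ankrd1 held it 210 and 123 bases before the start, and Ajuba 186 and 164 bases before it. Acta2 held it 146 bases before the start, followed by CArG boxes with 1 mismatch at 84 and 34 bases before it. No window held an exact CArG box or TGANTCA, and the windows of Lats2 (2 annotated starts) and Cnn1 held none of the motifs. Among 32851 promoter windows of that length, 12.6% held CATTCC, 8.59% a CArG box with 1 mismatch, 1.47% an exact CArG box and 6.75% TGANTCA. These matches describe letters in a short window and say nothing of binding.

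Library totals lay between 16063627 and 19427506 counts, with 20266 to 22950 genes detected. The target of the knockdown was lower: Csnk1a1, which encodes CK1α, had 172 and 169 CPM (counts scaled to a library total of 1000000) in CK1a_KD, against 325 and 354 CPM in KD_control, and fell by 0.96 ± 0.05 on the log2 scale (SE; edgeR adjusted p = 2.88e-27). Libraries labelled CK1a_OE reached 229 and 244 CPM, against 238 and 235 CPM in OE_control, with no difference called (-0.01 ± 0.04, edgeR adjusted p = 0.901). Directions in that comparison therefore rest on the label, since the target's RNA did not separate the groups. Of 19 macrophage markers, 8 had 0 counts in all 4 libraries labelled BMDM, Adgre1, C1qa, C1qb and C1qc among them, and the 19 together reached 9.08 to 11.1 CPM there. The same list summed to 14.1 to 17.5 CPM in the overexpression libraries (5 of 19 at 0). It summed to 254 to 302 CPM in the knockdown libraries (3 of 19 at 0), of which Cd68 made up a mean of 295 CPM in CK1a_KD and 249 CPM in KD_control. Of 14 fibroblast markers, the sum was 4773 to 6628 CPM in the libraries labelled BMDM, higher than the 1078 to 1229 CPM in the overexpression libraries and the 953 to 1117 CPM in the knockdown libraries, both labelled MEF. The data thus go against the label BMDM, and the cells of that set are called here by their treatments, SSTC3 and DMSO.

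Under SSTC3, Ccn1, Ccn2 and Ankrd1 rose together, Amotl2 and Lats2 rose by less, Cnn1 was called higher on few counts, and Acta2 and Ajuba were not called. Under the knockdown the members split: Ccn1 and Ankrd1 fell while Amotl2, Ajuba and Lats2 rose. Differences were small in the libraries labelled CK1a_OE, with Acta2 furthest from its control among the called members. Of the 9 members, 8 could be tested under SSTC3, and 6 were higher and 0 lower at an edgeR adjusted p under 0.05. Over all genes tested, 53.6% were called, 27.1% higher and 26.5% lower. Cnn1, among the 6, passed the filter on low counts only through SSTC3, so its call is not read as a result. Past a 2-fold change (edgeR's test against that fold), 3 members were higher; 4.43% of all genes passed it, 4.03% upward and 0.403% downward. All 9 were tested in the libraries labelled CK1a_OE, and 1 was higher and 4 lower, where 13.3% of all genes were called, 5.78% higher and 7.57% lower. A 2-fold change was passed there by 1 gene in all (0.00716%, upward), which is not a member. Under the knockdown 6 were tested, and 3 were higher and 2 lower, where 54.7% of all genes were called, 28.3% higher and 26.4% lower. Past 2-fold there, 1 member was higher and 1 lower, where 4.26% of all genes passed, 2.14% upward and 2.12% downward.

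The median log2 fold change of the tested members was 1.26 under SSTC3, -0.15 in CK1a_OE and 0.81 under the knockdown, where the medians of all genes tested were 0.01, 0.00 and -0.01. These medians cover only members above the filter on low counts, and a gene that passed through the group where it is high had to differ: Cnn1 passed in this way under SSTC3, and Tagln under the knockdown. The medians under SSTC3 and the knockdown include Cnn1 and Tagln respectively, so neither is read as a result on the members. Tagln was not tested under SSTC3, nor Ccn2, Acta2 and Cnn1 under the knockdown. In these bulk samples, fewer cells of a type and less RNA per cell cannot be told apart.

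**Figure D1:**
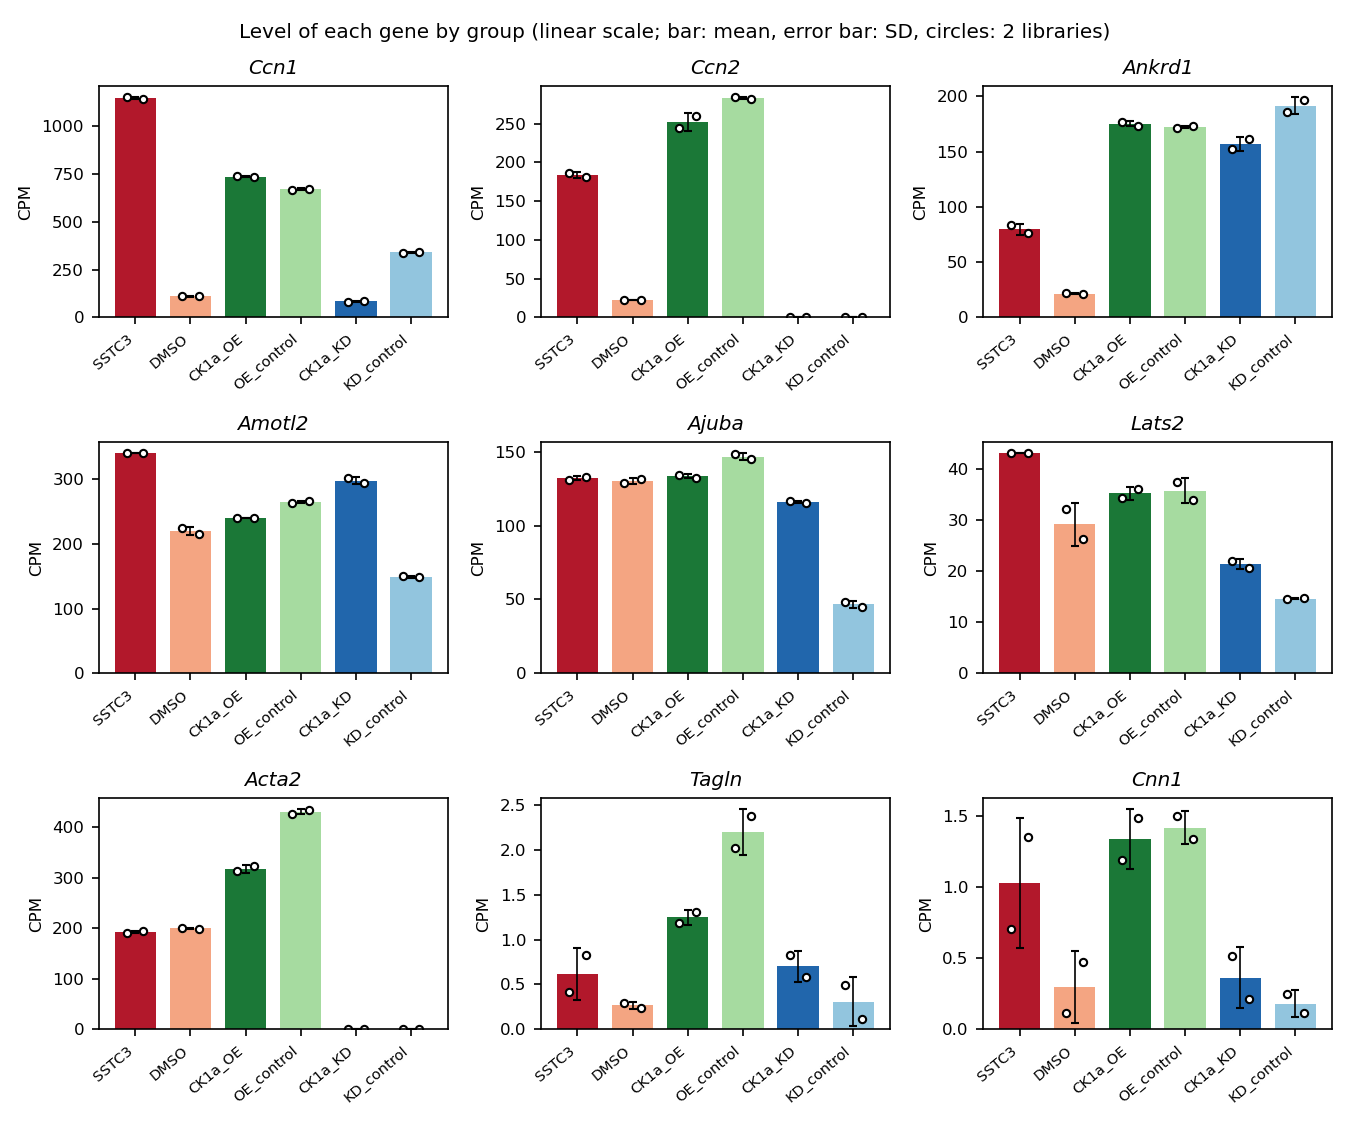
Level of each of the 9 genes in CPM of the library total (y axis, linear, a scale of its own per gene) for the 6 groups (x axis); bars are means, error bars SD and circles the 2 libraries. Ccn1 reaches 1149 CPM in SSTC3, against 110 CPM in DMSO, while Ccn2 and Acta2 are near 0 in CK1a_KD and KD_control.

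Ccn1 and Ccn2 encode secreted matricellular proteins of the CCN family, which bind integrins and heparan sulfate and act on adhesion, matrix and wound repair. Ccn1 (chr3:145646976-145649981, minus strand, mm10, GENCODE M21) had 1153 and 1146 CPM in SSTC3, against 109 and 112 CPM in DMSO. It rose 10.8-fold, by 3.44 ± 0.04 on the log2 scale (SE, n = 2 per group; edgeR adjusted p = 9.21e-187), and the groups lay far apart. Its level was 738 and 735 CPM in the libraries labelled CK1a_OE, against 668 and 674 CPM in OE_control, a small rise of 0.12 ± 0.03 (edgeR adjusted p = 0.000751) with no overlap between the groups. It had 81.8 and 85.0 CPM in CK1a_KD, against 338 and 343 CPM in KD_control. It fell there by 1.99 ± 0.05 on the log2 scale, to a level 3.99-fold below the control (edgeR adjusted p = 2.98e-43). Among the tested members, Ccn1 had the largest fold change in each of the SSTC3 and knockdown comparisons, in opposite directions.

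Ccn2 (chr10:24595442-24598683, plus strand) had 186 and 181 CPM in SSTC3, against 21.7 and 21.7 CPM in DMSO, and rose 8.78-fold (3.13 ± 0.06, edgeR adjusted p = 2.35e-129). The libraries labelled CK1a_OE were at 244 and 260 CPM, against 284 and 282 CPM in OE_control. It was lower there by a small margin (-0.18 ± 0.04, edgeR adjusted p = 0.000186), so Ccn1 and Ccn2 differed in direction in that comparison. In the knockdown set it was barely detected, with 2 and 2 counts in CK1a_KD and 5 and 9 counts in KD_control, and was not tested. Per kilobase of exon, the level of Ccn1 was 8.77 and 8.97 times that of Ccn2 in SSTC3 and 7.13 and 7.27 times in DMSO. It was 4.286 and 3.999 times in CK1a_OE and 3.34 and 3.38 times in OE_control, so Ccn1 led Ccn2 in all of these libraries. Of the exon bases of Ccn2, 23.2% are also covered by Gm15270 on the opposite strand, which had at most 5 counts in a library.

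Ankrd1 encodes a nuclear and sarcomeric ankyrin-repeat protein that is a classical readout of YAP in stretched cells and cardiac muscle. Ankrd1 (chr19:36111961-36120099, minus strand) had 83.3 and 76.0 CPM in SSTC3, against 21.9 and 21.0 CPM in DMSO, and rose 3.86-fold (1.95 ± 0.08, edgeR adjusted p = 4.99e-70). Under the CK1a_OE label its level was 177 and 174 CPM, against 172 and 173 CPM in OE_control (0.01 ± 0.04, edgeR adjusted p = 0.908). It had 152 and 161 CPM in CK1a_KD, against 186 and 197 CPM in KD_control, and fell by 0.26 ± 0.05 (edgeR adjusted p = 1.23e-05). Ankrd1 thus rose under SSTC3 and fell under the knockdown, as Ccn1 did, but by less on both sides. Among the 3 comparisons its lowest levels were those of the DMSO libraries.

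**Figure D2:**
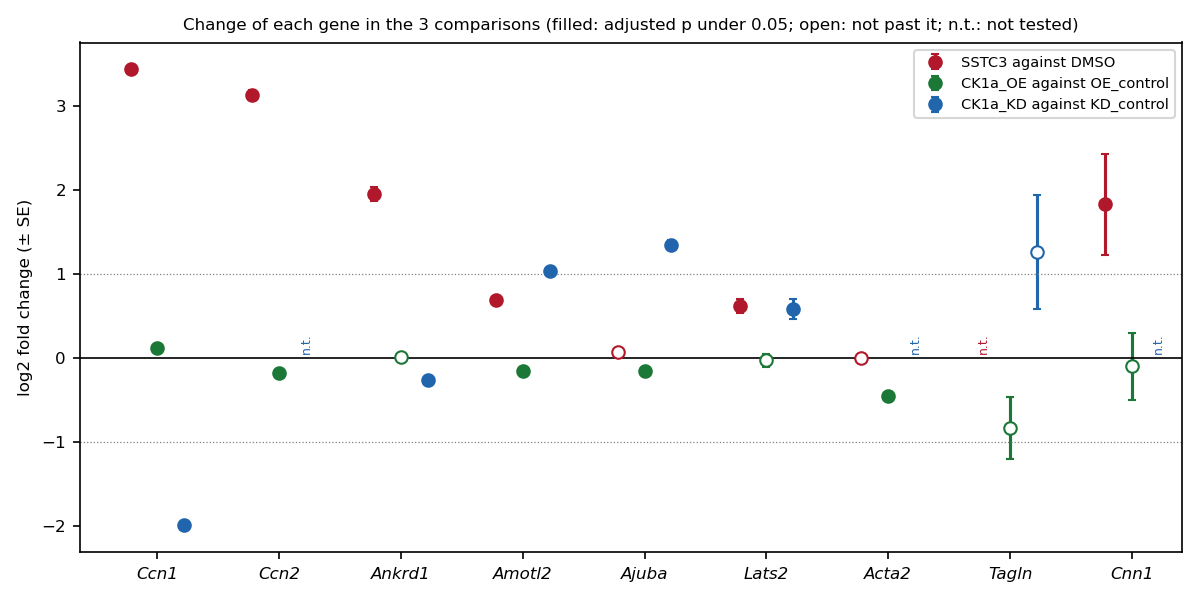
Log2 fold change with SE (y axis) of each gene (x axis) in the 3 comparisons; filled points passed an adjusted p of 0.05, open points did not, n.t. marks genes not tested, and dotted lines mark a 2-fold change. Ccn1 lies at 3.44 under SSTC3 and at -1.99 under the knockdown, while Amotl2 and Ajuba lie above 1 under the knockdown.

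Amotl2 encodes an angiomotin-like protein of cell junctions that binds YAP and holds it out of the nucleus. Amotl2 (chr9:102716672-102733418, plus strand) had 341 and 341 CPM in SSTC3, against 225 and 215 CPM in DMSO, and rose 1.61-fold (0.69 ± 0.04, edgeR adjusted p = 2.98e-42). It had 301 and 295 CPM in CK1a_KD, against 150 and 148 CPM in KD_control, a rise of 1.03 ± 0.05 (edgeR adjusted p = 6.12e-29). Against a 2-fold change this last rise did not pass (edgeR adjusted p = 0.986), since its estimate lies close to that fold. Its level was 239 and 240 CPM in the libraries labelled CK1a_OE, against 263 and 266 CPM in OE_control, which was lower by a small margin (-0.16 ± 0.03, edgeR adjusted p = 0.00103). Its groups did not overlap in any of the 3 comparisons.

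Ajuba encodes a LIM-domain adaptor that binds LATS kinases at junctions under tension and restrains them. Ajuba (chr14:54567472-54577558, minus strand) had 131 and 133 CPM in SSTC3, against 129 and 132 CPM in DMSO, and these groups overlapped (0.07 ± 0.05, edgeR adjusted p = 0.203). It had 117 and 116 CPM in CK1a_KD, against 48.4 and 44.9 CPM in KD_control. It rose 2.55-fold there, by 1.35 ± 0.06 on the log2 scale (edgeR adjusted p = 8.81e-28), and was the member that passed 2-fold upward. Libraries labelled CK1a_OE reached 134 and 133 CPM, against 149 and 145 CPM in OE_control (-0.15 ± 0.04, edgeR adjusted p = 0.0113). That last call was lost with DESeq2 (adjusted p = 0.124), without CK1a_OE replicate 2 (adjusted p = 0.0658) and without OE_control replicate 1 (adjusted p = 0.133).

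Lats2 encodes the kinase that phosphorylates YAP and TAZ and is itself raised by YAP. Lats2 (chr14:57689662-57758388, minus strand) had 43.0 and 43.1 CPM in SSTC3, against 32.1 and 26.2 CPM in DMSO, and rose 1.53-fold (0.62 ± 0.08, edgeR adjusted p = 1.45e-11). It had 21.98 and 20.7 CPM in CK1a_KD, against 14.5 and 14.6 CPM in KD_control, and rose by a like amount (0.58 ± 0.12, edgeR adjusted p = 1.99e-05). Its level was 34.3 and 36.1 CPM in the libraries labelled CK1a_OE, against 37.5 and 34.0 CPM in OE_control, and the groups overlapped (-0.03 ± 0.08, edgeR adjusted p = 0.842). Of its exon bases, 42.4% are shared with the annotated gene Gm49361 on the same strand, which had 0 counts in all libraries, so reads of the shared stretch may have been left unassigned.

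Acta2 encodes smooth muscle α-actin, the hallmark of contractile fibroblasts. Acta2 (chr19:34241090-34255590, minus strand) had 190 and 194 CPM in SSTC3, against 200 and 199 CPM in DMSO. By library total the SSTC3 libraries lay just under DMSO, and with TMM scaling no difference was called (0.00 ± 0.04, edgeR adjusted p = 0.984). The libraries labelled CK1a_OE were at 312 and 322 CPM, against 427 and 434 CPM in OE_control. It fell by 0.45 ± 0.03 on the log2 scale (edgeR adjusted p = 4.7e-17), the largest change of a called member in that comparison. In the knockdown set it had 6 and 2 counts in CK1a_KD, and 1 and 5 counts in KD_control, about the floor of 3 counts per library, so no fold is given. Acta2 was thus near 0 in the knockdown set and abundant in the overexpression set, both labelled MEF.

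Tagln encodes transgelin, an actin-bundling protein, and Cnn1 encodes calponin, which binds actin and tropomyosin and damps actomyosin; both are early markers of the smooth muscle programme. Neither exceeded 41 counts in any library. Tagln (chr9:45929619-45936058, minus strand) had 7 and 14 counts in SSTC3 and 5 and 4 counts in DMSO. It had 20 and 22 counts in CK1a_OE, against 35 and 41 counts in OE_control (-0.83 ± 0.37, edgeR adjusted p = 0.138). It had 16 and 11 counts in CK1a_KD, against 8 and 2 counts in KD_control (1.26 ± 0.68, edgeR adjusted p = 0.112), and the log2 fold change ranged over 0.52 to 2.61 with a library left out. Of the exon bases of Tagln, 67.9% lie under Pcsk7 and Gm48529 on the opposite strand. Pcsk7 had 23.3 to 41.7 CPM, and the strand setting of the counting is not given, so the Tagln counts are uncertain.

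Cnn1 (chr9:22099216-22109630, plus strand) had 12 and 23 counts in SSTC3, against 2 and 8 counts in DMSO (1.83 ± 0.60, edgeR adjusted p = 0.00622). It passed the filter on low counts only through SSTC3, so this call is not read as a result. That call was lost with DESeq2 (adjusted p = 0.0898), without SSTC3 replicate 2 (adjusted p = 0.307) and without DMSO replicate 1 (adjusted p = 0.217). Its log2 fold change ranged over 1.15 to 3.11 with a library left out. It had 20 and 25 counts in CK1a_OE, against 26 and 23 counts in OE_control (-0.10 ± 0.40, edgeR adjusted p = 0.917). In the knockdown set it had 10 and 4 counts in CK1a_KD, and 4 and 2 counts in KD_control. Of the contractile members, Acta2 was abundant in the SSTC3 and overexpression sets, where Tagln and Cnn1 averaged at most 2.20 and 1.42 CPM.

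Levels set side by side across all 6 groups ordered each gene differently. Ccn1 ran from SSTC3 (1149 CPM) over CK1a_OE (737), OE_control (671), KD_control (341) and DMSO (110) to CK1a_KD (83.4), 13.8 times apart, and no neighbours overlapped. Ankrd1 was highest in KD_control (192 CPM), followed by CK1a_OE (175), OE_control (172), CK1a_KD (157), SSTC3 (79.6) and DMSO (21.4), 8.95 times apart. The level of Ankrd1 in SSTC3, though above DMSO, thus stayed below all 4 groups labelled MEF, while that of Ccn1 lay above all of them. Amotl2 ran from SSTC3 (341 CPM) over CK1a_KD (298), OE_control (265), CK1a_OE (240) and DMSO (220) to KD_control (149), with 2.28-fold between the ends. Ajuba was highest in OE_control (147 CPM), followed by CK1a_OE (134), SSTC3 (132) and DMSO (130), whose neighbours overlapped. CK1a_KD (116) and KD_control (46.6) followed, 3.15-fold from end to end. Lats2 spanned 2.96-fold, from SSTC3 (43.0 CPM) to KD_control (14.6), and OE_control (35.7) and CK1a_OE (35.2) overlapped in the middle. Ccn2 and Acta2 were both highest in OE_control (283 and 431 CPM), and both were near 0 in CK1a_KD (0.104 and 0.207 CPM) and KD_control (0.408 and 0.171 CPM). These levels come from sets of cells that differ in other ways, so the order is a description of libraries.

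The 3 effects were then set against each other in a single edgeR model of all 12 libraries, over 17105 genes. Between SSTC3 and the knockdown, the effects differed for 5 of 9 members, where 45.1% of all genes differed. The effect on Ccn1 was higher under SSTC3 by 5.46 ± 0.06 on the log2 scale (edgeR adjusted p = 5.94e-85), and that on Ankrd1 by 2.23 ± 0.08 (edgeR adjusted p = 8.79e-42). The effect on Ajuba was lower under SSTC3 than under the knockdown (-1.25 ± 0.08, edgeR adjusted p = 6.44e-27), and so was that on Amotl2 (-0.32 ± 0.06, edgeR adjusted p = 2.53e-06). Ccn2 also passed, but on 2 to 9 counts per library in the knockdown set, so the size of its difference is not given. The difference for Lats2 was 0.06 ± 0.14 (edgeR adjusted p = 0.791), and Lats2 was called higher in both of these comparisons.

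Between SSTC3 and the libraries labelled CK1a_OE, 8 of 9 members differed, where 32.7% of all genes did. The differences were 3.31 ± 0.05 for Ccn1, 3.31 ± 0.08 for Ccn2 and 1.93 ± 0.08 for Ankrd1 (edgeR adjusted p from 2.05e-69 to 9.09e-37). Acta2 differed by 0.45 ± 0.06 (edgeR adjusted p = 3.33e-09), which mirrors its fall in CK1a_OE. The difference for Ajuba, 0.22 ± 0.07 (edgeR adjusted p = 0.00992), was lost with scaling by library totals (adjusted p = 0.0748) and without DMSO replicate 1, CK1a_OE replicate 2 or OE_control replicate 1 (adjusted p = 0.0589, 0.0558 and 0.0618). That for Tagln was close to the threshold (edgeR adjusted p = 0.0434) and was lost when any library of these comparisons other than SSTC3 replicate 1 was left out (adjusted p from 0.0569 to 0.313). Between the knockdown and the libraries labelled CK1a_OE, 7 of 9 differed, where 35.1% of all genes did. Ccn1 differed by -2.15 ± 0.05 (edgeR adjusted p = 2.47e-53), Ajuba by 1.47 ± 0.07 (edgeR adjusted p = 2.77e-31) and Amotl2 by 1.16 ± 0.06 (edgeR adjusted p = 2.6e-31). Lats2 (0.59 ± 0.14, edgeR adjusted p = 0.000337) and Ankrd1 (-0.30 ± 0.07, edgeR adjusted p = 0.000169) differed by less. Ccn2 and Tagln passed narrowly (edgeR adjusted p = 0.0447 and 0.0343) on few counts. Ccn2 was lost without CK1a_OE replicate 2 or KD_control replicate 2, or without either library of CK1a_KD or OE_control (adjusted p from 0.0508 to 0.308). Tagln was lost without either CK1a_OE library, OE_control replicate 2, CK1a_KD replicate 1 or KD_control replicate 2 (adjusted p from 0.0533 to 0.268).

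Among the factors above these targets, Yap1 and Wwtr1 (the gene of TAZ) moved in opposite directions to each other under SSTC3 and the knockdown. Under SSTC3, Yap1 had 140 and 141 CPM, against 176 and 177 CPM in DMSO, and fell by 0.27 ± 0.05 on the log2 scale (edgeR adjusted p = 9.37e-08). Wwtr1 had 143 and 145 CPM in SSTC3, against 109 and 117 CPM in DMSO, and rose by 0.40 ± 0.05 (edgeR adjusted p = 4.24e-13). The knockdown showed the reverse order: Yap1 had 181 and 180 CPM in CK1a_KD, against 117 and 122 CPM in KD_control (0.63 ± 0.05, edgeR adjusted p = 6.87e-17). Wwtr1 had 42.5 and 42.0 CPM in CK1a_KD, against 93.9 and 99.2 CPM in KD_control, and fell by 1.16 ± 0.07 (edgeR adjusted p = 2.44e-23). The effects of SSTC3 and the knockdown differed for both genes, by -0.87 ± 0.06 for Yap1 (edgeR adjusted p = 2.44e-21) and 1.59 ± 0.07 for Wwtr1 (edgeR adjusted p = 2.68e-34). Wwtr1 thus rose and fell in the same comparisons as Ccn1 and Ankrd1, and Yap1 in the reverse. RNA levels say nothing of the phosphorylation or the location of either protein.

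Of 10 genes for YAP, TAZ, TEAD and their VGLL competitors, 8 were tested under SSTC3, and 2 were higher and 4 lower. Vgll4, which competes with YAP for TEAD, fell by 1.06 ± 0.08 (edgeR adjusted p = 4.99e-29), and Tead1 was at 0.09 ± 0.05 (edgeR adjusted p = 0.0725). Under the knockdown 5 of 8 were higher and 1 lower, with Tead4 at 1.46 ± 0.13 (edgeR adjusted p = 1.04e-15) and Tead1 at 0.27 ± 0.05 (edgeR adjusted p = 5.82e-06). In the libraries labelled CK1a_OE, 0 of 8 were called by edgeR, by DESeq2 or by limma-voom, and 0 had an unadjusted p under 0.05. Over all genes tested, edgeR called 27.1% higher and 26.5% lower under SSTC3. It called 28.3% higher and 26.4% lower under the knockdown, and 5.78% higher and 7.57% lower in CK1a_OE. Of 18 Hippo kinases and regulators, 3 were higher and 8 lower under SSTC3, and 9 of 17 tested were higher and 5 lower under the knockdown. Frmd6, a FERM protein upstream of the kinases, rose by 1.45 ± 0.06 under SSTC3 (edgeR adjusted p = 2.44e-61). Under the knockdown Limd1, a relative of Ajuba, rose with it (0.96 ± 0.05, edgeR adjusted p = 2.9e-24), while Wwc1, which encodes the scaffold KIBRA, fell by 1.26 ± 0.18 (edgeR adjusted p = 2.72e-08). In CK1a_OE edgeR called 2 of 18 higher and 0 lower, Stk3 (0.26 ± 0.06, edgeR adjusted p = 0.00229) and Lats1 (0.14 ± 0.05, edgeR adjusted p = 0.0265). DESeq2 called 0 of the 18, with 2 at an unadjusted p under 0.05, and limma-voom called 2.

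Of 8 genes of the machinery that marks YAP for degradation (CK1 kinases and the SCF-βTrCP ligase), 5 were lower and 0 higher under SSTC3, where 26.5% of all genes were lower and 27.1% higher. Btrc, the gene of βTrCP, was lowest of them (-0.38 ± 0.07, edgeR adjusted p = 2.28e-07). Under the knockdown 2 were higher and 2 lower: Csnk1d, which encodes CK1δ, rose by 0.52 ± 0.05 (edgeR adjusted p = 1.73e-14) beside the fall of Csnk1a1. Of all genes tested there, 28.3% were higher and 26.4% lower, and in CK1a_OE 5.78% were higher and 7.57% lower. In the libraries labelled CK1a_OE 0 of 8 were called by edgeR, DESeq2 or limma-voom, with 2 at an unadjusted p under 0.05 by edgeR. Of 17 other YAP targets, 8 were higher and 8 lower under SSTC3, so the list as a whole did not follow Ccn1, Ccn2 and Ankrd1; its median was 0.17. Gadd45a, which responds to stress and DNA damage and is also raised by other factors, rose by 3.32 ± 0.14 under SSTC3 (edgeR adjusted p = 7.46e-62) and fell by 1.81 ± 0.07 under the knockdown (edgeR adjusted p = 4.04e-25). Nuak2, a kinase of the AMPK family, rose by 1.58 ± 0.13 under SSTC3 (edgeR adjusted p = 7.58e-27). Of the 12 tested under the knockdown, 6 were higher and 4 lower, led by Asap1 (1.41 ± 0.06, edgeR adjusted p = 3.27e-32). In CK1a_OE 1 of 16 was higher and 3 lower, the clearest being Ptpn14, a phosphatase that restrains YAP (-0.21 ± 0.03, edgeR adjusted p = 7.54e-07).

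**Figure D3:**
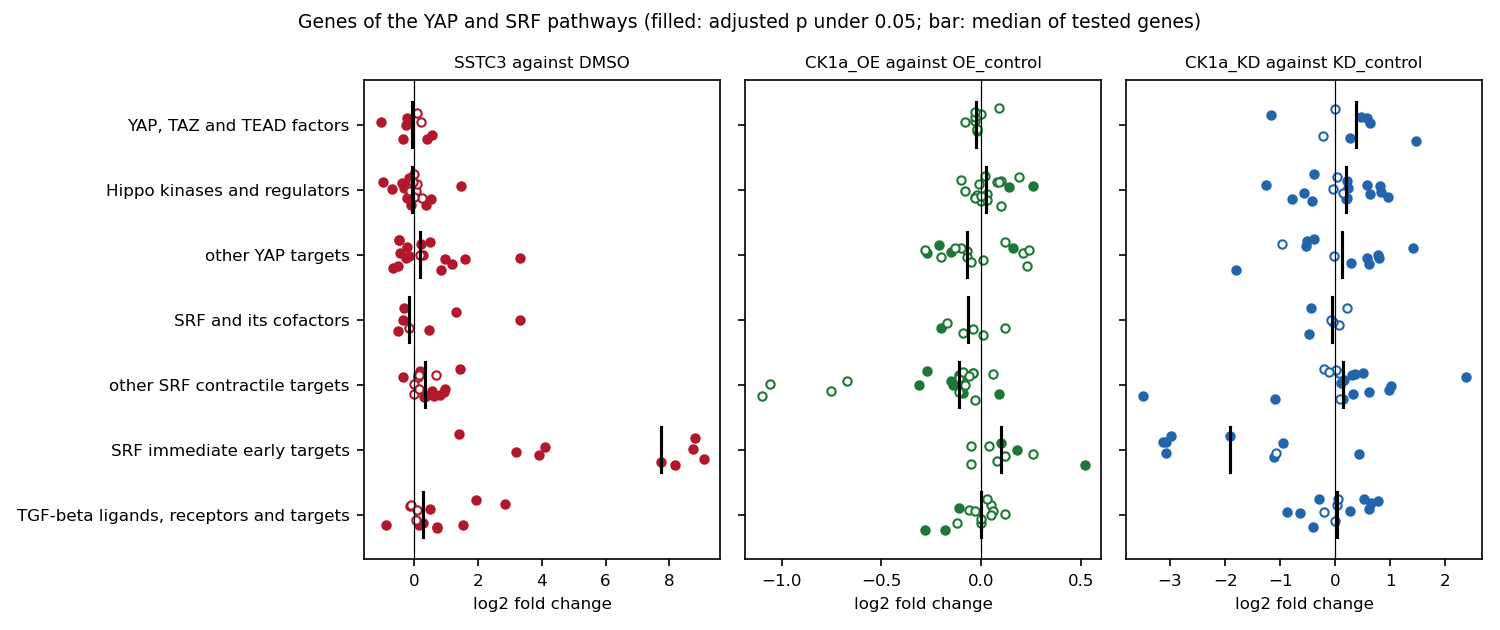
Log2 fold change (x axis, a scale of its own per panel) of each tested gene of 7 pathway lists (rows) in the 3 comparisons (panels); filled points passed an adjusted p of 0.05 and black bars mark the median of the tested genes. The immediate early targets stand at a median of 7.73 under SSTC3 and -1.92 under the knockdown, while the lists of other YAP targets and of other contractile targets have medians from -0.11 to 0.33 over the 3 panels. All medians include any gene that passed the filter on low counts only through the group where it is high.

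SRF itself rose under SSTC3 and was not called in the other comparisons. Srf had 233 and 231 CPM in SSTC3, against 97.8 and 95.8 CPM in DMSO (1.32 ± 0.05, edgeR adjusted p = 4.91e-77). It was at 0.01 ± 0.05 in the libraries labelled CK1a_OE (edgeR adjusted p = 0.91) and at 0.07 ± 0.05 under the knockdown (edgeR adjusted p = 0.219). The effect of SSTC3 was higher than that of the knockdown by 1.27 ± 0.07 (edgeR adjusted p = 1.56e-30). Its cofactor Mrtfa fell by 0.52 ± 0.07 under SSTC3 (edgeR adjusted p = 6.12e-11) and by 0.20 ± 0.04 in CK1a_OE (edgeR adjusted p = 0.000821), and was at -0.05 ± 0.09 under the knockdown (edgeR adjusted p = 0.668). Mrtfb fell by 0.36 ± 0.08 under SSTC3 (edgeR adjusted p = 1.87e-05) and was not called in the others. Myocd, the cofactor of smooth and cardiac muscle, had 17 and 14 counts in SSTC3, against 1 and 2 counts in DMSO. It passed the filter on low counts only through SSTC3, so no test is given for it.

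Of 24 other contractile and cytoskeletal targets of SRF, 18 were tested under SSTC3. Of these, 11 were higher and 1 lower, where 27.1% of all genes were higher and 26.5% lower. Zyx, which encodes zyxin of focal adhesions, rose by 1.42 ± 0.04 (edgeR adjusted p = 1.88e-91), Itga5, a fibronectin receptor subunit, by 0.95 ± 0.04 (edgeR adjusted p = 5.07e-67) and Fhl2, a LIM-domain cofactor, by 0.94 ± 0.07 (edgeR adjusted p = 8.31e-32). Under the knockdown 11 of 18 were higher and 2 lower, where 28.3% of all genes were higher and 26.4% lower. Acta1, the skeletal muscle α-actin, had 19.2 and 15.3 CPM in CK1a_KD, against 2.80 and 3.98 CPM in KD_control (2.37 ± 0.17, edgeR adjusted p = 1.25e-18). Smtn, which encodes smoothelin, fell by 1.10 ± 0.07 there (edgeR adjusted p = 5.34e-22). Lmod1 had 2 and 0 counts in CK1a_KD, against 10 and 13 counts in KD_control. It could pass the filter on low counts only through KD_control, so no call on it is read as a result. In the libraries labelled CK1a_OE, 1 of 21 was higher and 7 lower, among them Actb (-0.31 ± 0.02, edgeR adjusted p = 1.64e-17) and Actg1 (-0.27 ± 0.02, edgeR adjusted p = 5.04e-13). These are the nonmuscle actins, and they fell in CK1a_OE beside Acta2. Of all genes tested in that comparison, 5.78% were higher and 7.57% lower.

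The immediate early targets of SRF, induced through its ETS-family cofactors, were called mostly in the directions of Ccn1 under SSTC3 and the knockdown. All 9 were higher under SSTC3, 7 of 9 were lower and 1 higher under the knockdown, and 3 of 9 were higher in the libraries labelled CK1a_OE. Among all genes, 27.1% were higher under SSTC3, 26.4% lower and 28.3% higher under the knockdown, and 5.78% higher in CK1a_OE. Any gene of this list that passed the filter on low counts only through the group where it is high had to differ. The counts of called genes are therefore not read as a result on the list. Ier2 had 743 and 746 CPM in SSTC3, against 46.1 and 44.1 CPM in DMSO (4.10 ± 0.05, edgeR adjusted p = 6.76e-192). It had 59.9 and 55.1 CPM in CK1a_KD, against 217 and 228 CPM in KD_control, and fell by 1.92 ± 0.06 (edgeR adjusted p = 2.81e-39). Under the CK1a_OE label it reached 232 and 221 CPM, against 193 and 203 CPM in OE_control (0.18 ± 0.04, edgeR adjusted p = 0.000517).

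Over the 10880 genes with a mean of at least 5 CPM, the genes with the level profile most like each member's across the 12 libraries were found by the root mean square distance of centred log2(CPM + 1) values. For Ccn1 they were Dusp8 (0.47) and Ier2 (0.52), a MAP kinase phosphatase and an immediate early gene. For Ccn2, Ptgs2 (0.63), which encodes the inducible cyclooxygenase, was the second nearest. For Ankrd1 they were Tnfrsf23 and Shb (both 0.28), and for Acta2 Trim44 (0.31) and Mllt1 (0.36). Amotl2 was closest to Cx3cl1 (0.084) and Fbxw7 (0.12), Ajuba to Hdac7 and Eml4 (both 0.11), and Lats2 to E2f7 (0.099) and Edrf1 (0.13). Flat profiles lie close to many genes, so small distances are read within a member only. Among the members, Ajuba and Lats2 were each other's nearest (0.29), and the nearest to Amotl2 was Ajuba (0.34). Ajuba, Lats2 and Amotl2 spanned only 2.28- to 3.15-fold over the groups, so these short distances are not read as a shared pattern. Ccn1, Ccn2, Ankrd1 and Acta2 lay 1.14 to 1.20 from their nearest member. Tagln and Cnn1 were below the minimum.

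The families of the members showed which relatives carried the RNA. Per kilobase of exon, Acta2 averaged 87.5 ± 1.17 CPM in SSTC3 and 90.9 ± 0.519 CPM in DMSO (SD, n = 2 each), against 1188 ± 24.2 and 840 ± 13.1 CPM for Actb in the same groups. In the knockdown set Actb averaged 2412 ± 18.1 CPM per kilobase in CK1a_KD and 2366 ± 17.9 CPM in KD_control (SD, n = 2 each), while Acta2 averaged 0.0943 and 0.0780 CPM per kilobase there. Tagln2 and Cnn2, the nonmuscle relatives of Tagln and Cnn1, stood at 113 to 270 and 63.5 to 136 CPM per kilobase over the 6 groups, where Tagln did not exceed 1.11 and Cnn1 did not exceed 0.519. Tagln2 rose by 0.47 ± 0.04 under SSTC3 (edgeR adjusted p = 2.73e-24) and fell by 0.26 ± 0.04 under the knockdown (edgeR adjusted p = 2.99e-07), and Cnn2 was called in none of the 3 comparisons. Of 20 relatives in all, 6 of 14 tested were higher and 3 lower under SSTC3, 2 of 17 higher and 3 lower in CK1a_OE, and 5 of 12 higher and 3 lower under the knockdown. The shares of all genes were 27.1% higher and 26.5% lower, 5.78% and 7.57%, and 28.3% and 26.4%, in the same order. The actins share long stretches of near-identical coding sequence, so reads could be split between them. Tagln overlaps Pcsk7 and Gm48529 on the opposite strand, so its level per kilobase, and its distance from Tagln2, are uncertain.

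**Figure D4:**
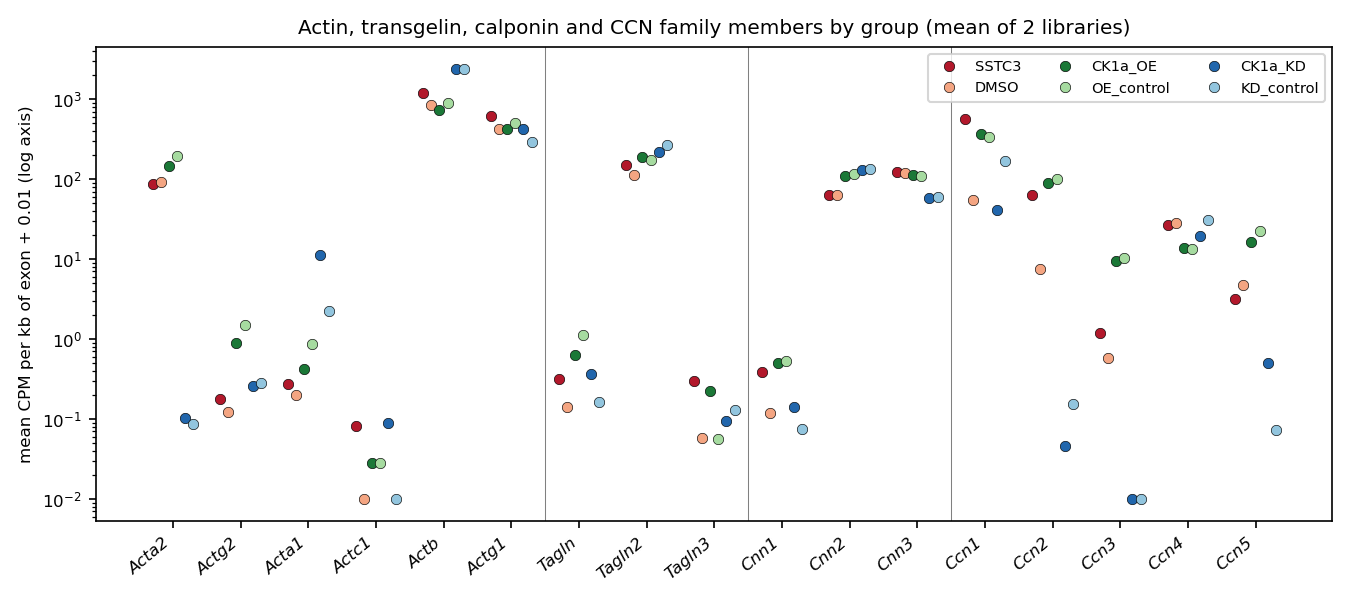
Mean level of actin, transgelin, calponin and CCN family members (x axis) in CPM per kilobase of exon plus 0.01 (y axis, log), with the 6 groups as coloured points (means of 2 libraries). In CK1a_KD and KD_control, Acta2 is at 0.0943 and 0.0780 CPM per kilobase and Ccn2 at 0.0364 and 0.143, where Actb is at 2412 and 2366.

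Fibroblast markers went down under SSTC3, where the called members rose: 9 of 12 tested were lower and 1 higher, beside 26.5% of all genes lower and 27.1% higher. The 14 summed to 4773 to 4833 CPM in SSTC3, against 6383 to 6628 CPM in DMSO. Smooth muscle and pericyte markers, 8 in all, summed to 116 to 129 CPM in the SSTC3 and DMSO libraries, 546 to 573 CPM in the overexpression libraries and 671 to 829 CPM in the knockdown libraries. Of these 8, Kcnmb1 was at 0 counts in the SSTC3 and knockdown sets, and Myh11, the defining myosin, averaged 0.209 to 0.492 CPM over the 6 groups. Other genes of the list made up nearly all of the sum in those sets, so Kcnmb1 and Myh11 do not stand for the list. In CK1a_OE 5 of 9 tested fibroblast markers were lower and 0 higher, where 7.57% of all genes were lower and 5.78% higher, beside the fall of Acta2. Their part in the results of the members was not tested.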

How the data were processed

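The deposited files hold raw counts per gene for 12 libraries, as whole numbers with no scaling; per the submitters' processing notes, the authors used HISAT2, featureCounts and mm10. No source used here gives versions, annotation or the strand setting. The overexpression files list 55401 features and the others 54532, of which 54100 are shared. Symbols, positions and exon lengths come from GENCODE M21.

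For each comparison, a separate fit of its 4 libraries used edgeR 4.0.16 in R 4.3.3 (filterByExpr, TMM factors, robust quasi-likelihood F test), with Benjamini-Hochberg adjustment over all genes tested and a threshold of 0.05, and against a 2-fold change with glmTreat. SE is the absolute log2 fold change over the square root of F and can be too small for low counts. Differences between effects are contrasts in 1 model of all 12 libraries. Levels are CPM of the library total with SD over 2 libraries. With 2 residual degrees of freedom per fit, the common dispersion's square root was 0.0341 for SSTC3, 0.0396 for overexpression and 0.0431 for knockdown. The scripts were tested on simulated data. Replicates differed by more than sampling noise (chi-square per degree of freedom 2.29 to 3.61). Alternatives used DESeq2 1.42.0, limma 3.58.1, other scalings and filters, and left-out libraries.

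The members and gene lists were chosen with earlier results of these data known. All 9 members are named; from each other list, up to 3 called genes with the largest absolute log2 fold change per comparison, plus Yap1, Wwtr1, Tead1, Srf, Mrtfa, Mrtfb and Csnk1a1; and the 2 nearest profiles of each member. Some genes under these rules are not reported here. Cell type markers named in the text are defining markers or those that made up a sum, chosen after their values were seen.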

Additional observations from a re-analysis of the deposited data

How the results depend on the processing

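Of the recomputed log2 fold changes of the members, 255 kept their side of the threshold and their direction, 6 lost the call, those of Cnn1 under SSTC3 and Ajuba in CK1a_OE named above, and 11 changed sign. Of the differences between effects, 313 kept both, 26 lost the call, 3 gained it and 9 changed sign. The values that changed sign were not called with either setting. Acta2 under SSTC3 (0.00) was at -0.00 with RLE factors and DESeq2, -0.05 with library totals, -0.02 with no filter, -0.01 in the fit of all 12 libraries and -0.02 to 0.01 with a library left out. With a library left out, CK1a_OE gave -0.00 to 0.03 for Ankrd1, -0.10 to 0.04 for Lats2 and -0.26 to 0.06 for Cnn1. Likewise the difference between SSTC3 and CK1a_KD was -0.08 to 0.20 for Lats2, -1.65 to 0.69 for Acta2 and -1.33 to 0.75 for Tagln (-0.02 with library totals), and that between CK1a_KD and CK1a_OE was -0.25 to 2.10 for Acta2. The count of genes called in CK1a_OE was 1863, and 607 by DESeq2, 1188 in a fit of all 12 libraries and 1065 to 1478 with a library left out. Genes past a 2-fold change numbered 332 with DESeq2 under SSTC3 (627 with edgeR) and 337 under the knockdown (632 with edgeR). In CK1a_OE 1 gene passed it with edgeR, 1 to 6 with a library left out, and 0 with DESeq2, where 4 had an unadjusted p under 0.05. Members called ranged over 5 to 6, 4 to 5 and 5 to 5 of those tested with a library left out. Scaling by library totals moved the split of higher and lower genes to 3290 and 4419 under SSTC3 (3830 and 3749 with TMM), 978 and 948 in CK1a_OE (807 and 1056) and 3864 and 4226 under the knockdown (4196 and 3917). The cause of these changes was not tested. Same-numbered libraries did not deviate together (correlations of -0.05, -0.02 and -0.04 over 2 pairs each). No pairing by number was seen, but 2 pairs cannot exclude it. With a replicate block 7303, 1768 and 8066 genes were called, and no call on a member's fold change changed. Of the differences, that for Tagln between SSTC3 and CK1a_OE was lost with this block (edgeR adjusted p = 0.054). Low counts limit what can be said of Tagln and Cnn1 throughout and of Ccn2 and Acta2 in the knockdown set.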

Other observations

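TGF-β is a secreted growth factor whose Smad pathway raises many of the same matrix and contractile genes, and 13 of its ligands, receptors and targets formed a further list. Under SSTC3, 8 of 13 were higher and 1 lower (27.1% and 26.5% of all genes). The feedback inhibitors Smad7 (1.94 ± 0.07, edgeR adjusted p = 1.14e-73) and Skil (1.53 ± 0.05, edgeR adjusted p = 1.48e-82) were among those that rose. Under the knockdown 5 were higher and 4 lower, and Smad7 fell by 0.87 ± 0.08 (edgeR adjusted p = 1.28e-14). In the libraries labelled CK1a_OE 3 of 13 were lower and 0 higher. The shares of all genes were 28.3% higher and 26.4% lower under the knockdown, and 7.57% lower and 5.78% higher in CK1a_OE.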
